A study of Mus musculus with 69 samples.

Results

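The H,K-ATPases are pumps of the cell membrane that use ATP to move protons out of the cell and potassium into it. Atp4a encodes the gastric catalytic alpha subunit, the pump of acid-secreting parietal cells, Atp4b encodes its beta subunit, and Atp12a encodes the non-gastric, or colonic, alpha subunit. In the kidney both alpha subunits are known from the collecting duct, mainly from its intercalated cells, where the pumps reabsorb potassium and secrete acid. These 3 subunit genes, of 56783 genes listed in all, are described here in every library of the series. They were chosen by symbol, and the choice was also based on the higher Atp4a level in cortical collecting duct at 24 h after nephrectomy, so the 24 h collecting duct values of the 3 genes are given as a description with no test.

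RNA-seq had been done on tubules dissected by hand from kidneys of male wild-type C57BL/6 mice, 7 weeks old when assigned to surgery. The mice had a sham operation or unilateral nephrectomy (UNx, excision of a kidney), and at 24 h or 72 h after surgery a tubule segment was taken, either cortical collecting duct (CCD) or the S1 part of the proximal tubule (PT-S1). CCD at 24 h comprised 8 sham libraries of 4 animals and 7 UNx libraries of 3 animals. The CCD groups of 72 h had 7 sham libraries of 4 animals and 6 UNx libraries of 4 animals. PT-S1 at 24 h comprised 8 sham libraries of 3 animals and 9 UNx libraries of 4 animals, and PT-S1 at 72 h comprised 12 libraries of 5 animals in each group. A dissected duct is a mixture of principal and intercalated cells, and in such bulk samples fewer cells of a type and less RNA per cell cannot be told apart. Values are TPM, a transcript abundance scaled by gene length and to a fixed total per library, so levels can be set side by side between genes. TPM keeps no sequencing depth, so depth is unknown and no detection limit was computed.

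The tubules carried the markers of their labelled segments. The summed TPM of 7 principal cell markers ranged from 18689 to 64074 over CCD animals, and that of 3 type B intercalated cell markers (Slc26a4, Slc4a9 and Insrr) from 1300.2 to 3280. Over PT-S1 animals the type B sum ranged from 0.865 to 12.5 TPM, and 5 proximal tubule markers summed to between 6132 and 14679 TPM. A CCD library of 72 h sham animal 1 and 4 PT-S1 libraries stood apart, with a median correlation to the rest of their table under 0.92. Among these PT-S1 libraries, those of UNx animals 1 and 2 at 72 h had proximal tubule marker sums of 1804 and 1871 TPM. The other library of each of these animals had 14571 and 14934 TPM. No UNx against sham test was made between tables, and levels of different tables stand side by side only.

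The deposited values are sums per gene, so how alike the pump genes are in sequence bears on whether reads of one could be assigned to another. Atp4a (ENSMUSG00000005553) lies on chromosome 7, Atp4b (ENSMUSG00000031449) on chromosome 8 and Atp12a (ENSMUSG00000022229) on chromosome 14. In GENCODE M21 (GRCm38) the coding sequences of Atp4a (3105 bases) and Atp12a (3108 bases) were 66.1% identical over 3071 aligned bases, and the longest run they shared was 17 bases. The beta subunit genes Atp4b and Atp1b1 were 57.9% identical, with a longest shared run of 15 bases.

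Neighbouring genes were also checked in that annotation, because the strand setting of the authors' counting is not given in the sources used here. No annotated gene overlaps Atp4a. Its nearest protein-coding neighbour is Tmem147, on the opposite strand at a distance of 2166 bases. Atp12a overlaps the antisense gene Gm10873 over 11649 bases, and Atp4b overlaps the locus Gm45410 over 1093 bases. These are overlaps of whole gene spans, introns included, and overlap of exons was not checked. Without a stated strand setting, reads from the shared stretches may not be told apart. Gm10873 itself averaged 0.491 TPM in the sham and 0.448 TPM in the UNx group of CCD 24 h, far below Atp12a.

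**Figure D1:**
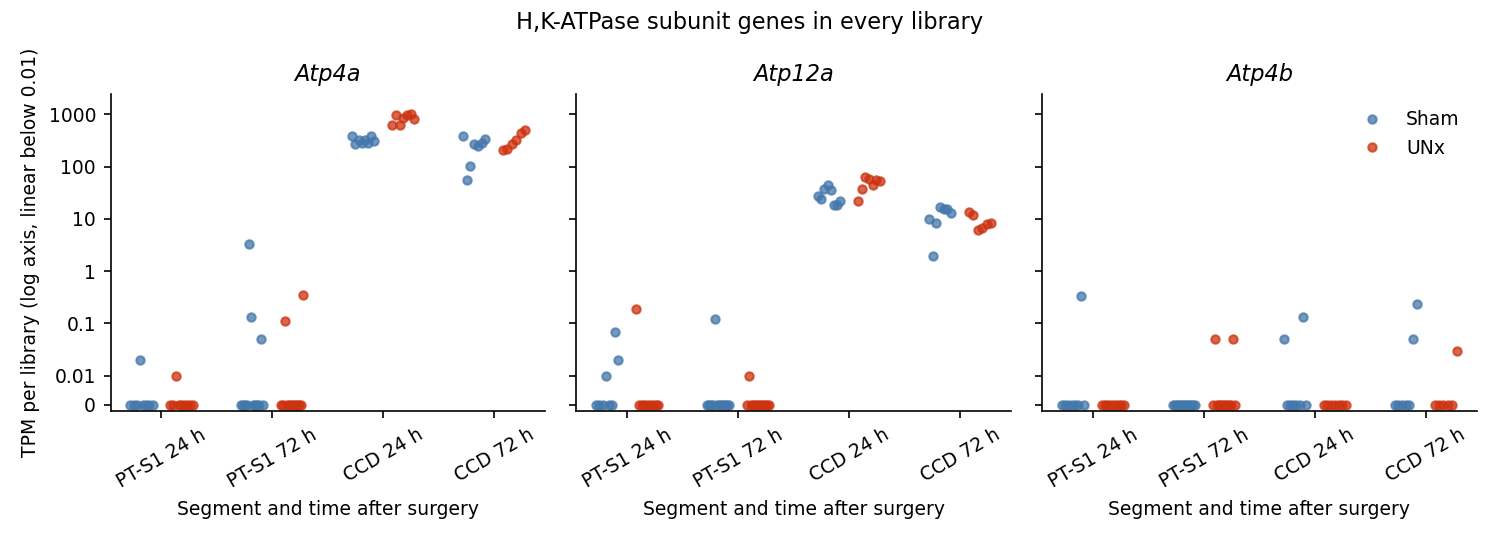
TPM of Atp4a, Atp12a and Atp4b (vertical axis, logarithmic above 0.01 and linear below it) in each sham (blue) and UNx (red) library of the 4 segment and time groups on the horizontal axis; each point is a library. Atp4a lies between 56.1 and 995 TPM in CCD, Atp12a between 1.99 and 64.5 TPM, and Atp4b at or near 0 in both segments.

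Atp4a, the gastric alpha subunit, was found in every CCD library and was among the more abundant transcripts of the duct. In sham animals at 24 h it averaged 319 ± 9.19 TPM (SD, n = 4) and ranked 498th among all genes listed, and in UNx animals at that time it averaged 818 ± 100 TPM (SD, n = 3) and ranked 153rd. The libraries of sham animal 1 held 378 and 273 TPM, those of sham animal 2 held 329 and 284 TPM, the single library of sham animal 3 held 318 TPM, and those of sham animal 4 held 286, 382 and 310 TPM. The libraries of UNx animal 1 held 614 and 984 TPM, those of UNx animal 2 held 617 and 839 TPM, and those of UNx animal 3 held 961, 995 and 820 TPM. Every UNx library was above every sham library. By animal the sham values were 325, 306, 318 and 326 TPM, and the UNx values were 799, 728 and 925 TPM, so the groups did not overlap.

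The level of Atp4a in UNx animals at 24 h was 2.56 times that of sham animals, and the difference of log2(TPM + 1) was 1.34. These are the values on which Atp4a was selected, and no test was made of them. Of the 13775 genes with a mean of at least 1 TPM in CCD at 24 h, 45 had a larger positive difference. For background, all UNx animals lay above all sham animals for 5.71% of those genes and below them for 9.3%, and 0.987% of them passed an adjusted p of 0.05 by limma (136 genes, of which 45 were higher and 91 lower). That count of 136 rests on few animals: it was 7 without UNx animal 1 and also 7 without UNx animal 2, and between 18 and 78 without any other animal. The difference of Atp4a was between 1.24 and 1.41 when each animal was left out in turn. That range comes from the animals on which Atp4a was selected and is a description only.

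At 72 h the Atp4a levels of sham and UNx animals overlapped. The libraries of sham animal 1 held 383 and 56.1 TPM, the single libraries of sham animals 2 and 3 held 105 and 269 TPM, and those of sham animal 4 held 245, 289 and 331 TPM. The libraries of UNx animal 1 held 204 and 219.5 TPM, the single libraries of UNx animals 2 and 3 held 276 and 316 TPM, and those of UNx animal 4 held 439 and 511 TPM. The low sham values came from animal 2 and from 1 of the libraries of animal 1, and the high UNx values came from animal 4. Sham animals averaged 220.5 ± 82.5 TPM (SD, n = 4) and UNx animals 320 ± 112 TPM (SD, n = 4), and 2 of the 4 UNx animals lay above every sham animal. The difference of log2(TPM + 1) was 0.72 (SE 0.34, limma adjusted p = 0.700) and did not pass the test.

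In this table, 0.595% of the 13770 genes tested passed (82 genes), and for 4.77% the groups did not overlap in either direction. The sham library with 56.1 TPM was the one with the low correlation to the rest. Without that library the difference of Atp4a was 0.37 (limma adjusted p = 0.683), and sham animals averaged 261 ± 116 TPM (SD, n = 4). The highest sham animal was then at 383 TPM, and only UNx animal 4 lay above every sham animal. In that library the type B marker sum was 896 TPM, against 2649 TPM in the other library of the same animal. Principal cell markers summed to 26758 and 27008 TPM in these libraries, and proximal tubule markers to 73.2 and 27.2 TPM. The part of these markers in the low Atp4a value was not tested. The count of 82 genes was 129 without that library, and between 8 and 73 when each animal was left out in turn, with 8 without UNx animal 3, 10 without UNx animal 2, 14 without UNx animal 1 and 43 without either sham animal 2 or UNx animal 4.

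Atp12a, the non-gastric alpha subunit, was also present in every CCD library, at a much lower level than Atp4a. At 24 h sham animals averaged 30.5 ± 9.70 TPM (SD, n = 4) and UNx animals 47.4 ± 15.8 TPM (SD, n = 3), a ratio of 1.55 and a difference of log2(TPM + 1) of 0.60. The libraries of sham animal 1 held 27.7 and 24.3 TPM, those of sham animal 2 held 37.5 and 44.4 TPM, the library of sham animal 3 held 35.8 TPM, and those of sham animal 4 held 18.4, 18.1 and 21.5 TPM. The libraries of UNx animal 1 held 22.4 and 37.9 TPM, those of UNx animal 2 held 64.5 and 57.8 TPM, and those of UNx animal 3 held 43.7, 54.4 and 54.1 TPM. UNx animals 2 and 3 lay above every sham animal and UNx animal 1 lay among them, so the groups overlapped. The difference was 0.90 without UNx animal 1, 0.41 without sham animal 4 and 0.38 without UNx animal 2.

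At 72 h Atp12a was low in both groups. The libraries of sham animal 1 held 9.81 and 1.99 TPM, those of sham animals 2 and 3 held 8.45 and 16.7 TPM, and those of sham animal 4 held 15.1, 15.5 and 13.1 TPM. The libraries of UNx animal 1 held 13.2 and 11.7 TPM, those of UNx animals 2 and 3 held 6.06 and 6.72 TPM, and those of UNx animal 4 held 8.01 and 8.45 TPM. The lowest library was again the one of sham animal 1 with the low correlation. Sham animals averaged 11.4 ± 5.08 TPM (SD, n = 4) and UNx animals 8.38 ± 2.89 TPM (SD, n = 4). The difference of log2(TPM + 1) was -0.28 (SE 0.35, limma adjusted p = 0.930), it did not pass the test, and the groups overlapped. Without the library of low correlation it was -0.51 (limma adjusted p = 0.402), and leaving out sham animal 1 or sham animal 3 gave -0.60 and -0.05.

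Atp4b, the beta subunit that pairs with Atp4a in the stomach, was listed at 0 in most libraries. It was above 0 in 2 of 15 CCD libraries at 24 h, both sham, with a highest value of 0.13 TPM. At 72 h it was above 0 in 3 of 13 CCD libraries, at 0.05 and 0.24 TPM in sham animal 4 and 0.03 TPM in UNx animal 4. It was therefore below the mean of 1 TPM required for the limma test in every table. An exact permutation test over the 72 h CCD animals gave p = 1, where the smallest exact p for these values is 0.429. Atp1b1, the beta subunit of the Na,K-ATPase, was at 1450.0 ± 64.0 TPM in the sham and 1318 ± 35.1 TPM in the UNx group of CCD 24 h (SD, n = 4 and 3). Atp1b1 transcripts thus outnumbered those of Atp4a by a ratio of 4.54 ± 0.134 (SD, n = 4) in sham and 1.63 ± 0.227 (SD, n = 3) in UNx animals, with no overlap. The ratio holds the 24 h values on which Atp4a was selected, so that separation is a description only. At 72 h the ratio was 6.56 ± 4.09 and 4.42 ± 1.45 (SD, n = 4 each), with overlap.

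PT-S1 held almost no transcript of the 3 genes. At 24 h Atp4a was above 0 in 2 of 17 libraries, at 0.02 TPM in a sham and 0.01 TPM in a UNx library, Atp4b in 1 of 17, at 0.34 TPM in a sham library, and Atp12a in 4 of 17, with a highest value of 0.19 TPM in a UNx library. Two-sided exact permutation tests over animals gave p = 0.857 for Atp4a, 0.857 for Atp4b and 1 for Atp12a. At 72 h Atp4a was above 0 in 5 of 24 libraries, Atp4b in 2 of 24, at 0.05 TPM in both, and Atp12a in 2 of 24, with a highest value of 0.12 TPM. The exact permutation p was 0.881 for Atp4a, 0.444 for Atp4b and 1 for Atp12a. With most animals at 0, only the test of Atp4a at 72 h could have gone below 0.05 (smallest exact p for its values 0.0476). The other 5 tests could not, with smallest exact p from 0.0571 to 0.857, so they bear on no difference.

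A single PT-S1 library stood out, a library of sham animal 3 at 72 h with 3.33 TPM of Atp4a. The next highest of the other 23 libraries had 0.35 TPM. The same library held a type B marker sum of 23.3 TPM, against a highest value of 4.87 TPM and a median of 2.03 TPM in the others. Atp12a was also highest there among PT-S1 libraries at 72 h, at 0.12 TPM. Whether type B cell RNA accounts for the Atp4a in that library was not tested.

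The 2 alpha subunit genes kept their order in every CCD animal. The ratio of Atp4a to Atp12a was 11.4 ± 4.19 (SD, n = 4) in sham and 18.9 ± 7.31 (SD, n = 3) in UNx animals at 24 h, and its lowest value in any animal was 7.48. At 72 h the ratio was 21.4 ± 11.01 in sham and 41.8 ± 17.4 in UNx animals (SD, n = 4 each). The ratios of sham and UNx animals overlapped at both times. The order of the Atp4a levels was UNx 24 h, then UNx 72 h and sham 24 h at nearly the same level, then sham 72 h. Animals of UNx 72 h (212 to 475 TPM) overlapped those of sham 24 h (306 to 326 TPM) and of sham 72 h (105 to 289 TPM). Every sham animal at 72 h was below every sham animal at 24 h, but this rested on the library of low correlation. Without that library the highest sham animal at 72 h was at 383 TPM, above all sham animals at 24 h. Since the tables were normalized separately, the order across times was not tested. Atp12a was highest in UNx 24 h and next in sham 24 h, whose values overlapped, and lower in sham and UNx at 72 h, which also overlapped.

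**Figure D2:**
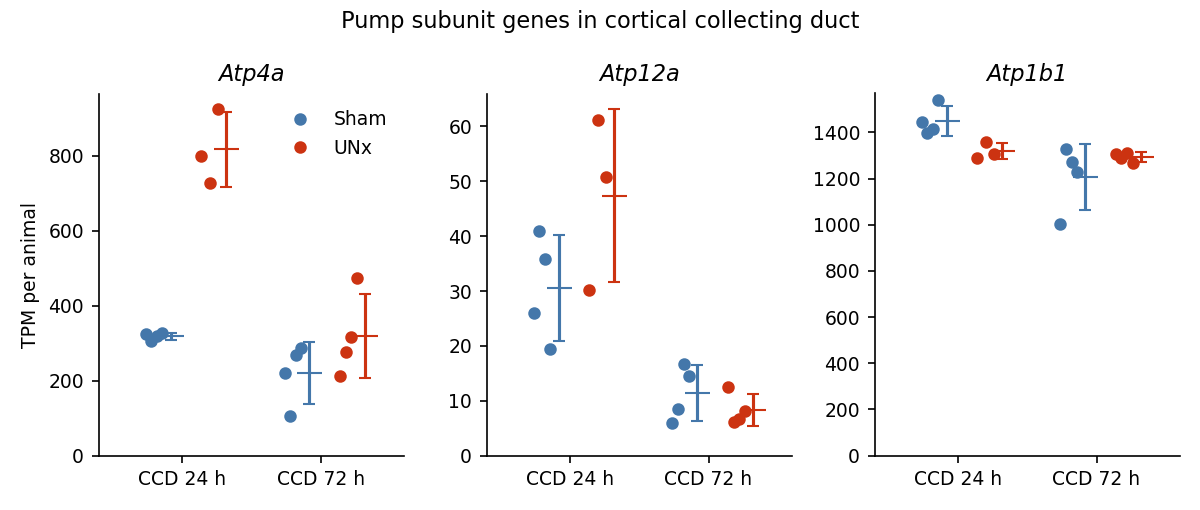
TPM per animal (vertical axes, each from 0) of Atp4a, Atp12a and Atp1b1 in CCD at 24 h and 72 h; points are sham (blue) and UNx (red) animals, and bars show the mean and SD. For Atp4a at 24 h the 3 UNx animals lie between 728 and 925 TPM and the 4 sham animals between 306 and 326 TPM, whereas at 72 h the groups overlap.

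The precision of these values differed by gene and time. The SD of log2(TPM + 1) of Atp4a at 24 h was 0.27 between libraries of an animal and 0.12 between animals of a group. At 72 h these SDs were 0.88 and 0.60. For Atp12a they were 0.23 and 0.50 at 24 h, and 0.59 and 0.60 at 72 h. The spread between libraries at 72 h rested on the library of low correlation: without it the SD between libraries was 0.18 for Atp4a and 0.11 for Atp12a, below the values at 24 h. The SD between animals at 72 h was then 0.67 for Atp4a and 0.42 for Atp12a.

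The Na,K-ATPase exchanges sodium for potassium at the basolateral membrane of tubule cells. Of the 15 genes of its list, which holds alpha, beta and FXYD subunits, 9 were tested at 24 h and 0 passed limma's adjusted p of 0.05. At an unadjusted p under 0.05, 3 of the 9 were lower and 0 higher, where over all genes tested 9.97% were lower and 5.55% higher at that limit. Their median difference was -0.14, beside -0.04 over all genes tested. Fxyd3 (-0.73, limma adjusted p = 0.212) and Atp1b2 (-0.70, limma adjusted p = 0.287) had the smallest p. Both were close to the mean of 1 TPM required for the test. Fxyd3 averaged 1.95 TPM in the sham and 0.778 TPM in the UNx group, and Atp1b2 2.32 and 0.984 TPM. Atp1b1 was the only 1 of the 9 whose groups did not overlap, with all UNx animals lower (-0.14, limma adjusted p = 0.405). All UNx animals lay below all sham animals for 9.3% of all genes. At 72 h, 0 of 8 tested members passed in limma and 0 had an unadjusted p under 0.05. The median difference was then 0.16, beside 0.01 over all genes. Fxyd2, which modulates the pump's affinity for sodium, had the smallest p, at 636 TPM in the sham and 873 TPM in the UNx group (0.56, limma adjusted p = 0.756), followed by Fxyd4 (0.22, adjusted p = 0.887) and Fxyd3 (-0.49, adjusted p = 0.898).

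Intercalated cells are the duct cells of acid-base transport: type A cells secrete acid and carry Slc4a1, a basolateral chloride-bicarbonate exchanger, and type B cells secrete bicarbonate through Slc26a4 (pendrin). Slc26a4 was at 1138 ± 127 TPM in the sham and 1428 ± 140.2 TPM in the UNx group at 24 h (SD, n = 4 and 3), a difference of 0.33 (limma adjusted p = 0.189), with 2 of 3 UNx animals above every sham animal. Slc4a1 averaged 272 ± 100.3 TPM and 322 ± 41.3 TPM (SD, n = 4 and 3), a difference of 0.35 (limma adjusted p = 0.570), with overlap. Foxi1, the transcription factor that specifies intercalated cells, averaged 537 and 552 TPM (0.05, limma adjusted p = 0.884). None of these 3 passed the test.

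The size of the Atp4a difference at 24 h was larger than that of these cell type genes, as ratios within each animal show. Atp4a amounted to 0.283 ± 0.029 of the Slc26a4 level (SD, n = 4) in sham and 0.581 ± 0.131 (SD, n = 3) in UNx animals. Relative to Slc4a1 it was 1.31 ± 0.508 and 2.59 ± 0.623, and relative to Foxi1 it was 0.603 ± 0.091 and 1.49 ± 0.257. None of these ratios overlapped between groups at 24 h. Relative to its genomic neighbour Tmem147, which averaged 308 and 365 TPM (0.25, limma adjusted p = 0.313), Atp4a was at 1.05 ± 0.164 in sham and 2.25 ± 0.323 in UNx animals, again with no overlap. At 72 h the ratio to Slc26a4 was 0.196 ± 0.024 and 0.248 ± 0.074 (SD, n = 4 each), and the ratios to Slc26a4, Slc4a1, Foxi1 and Tmem147 all overlapped. Because Atp4a was selected on its 24 h values, the ratios at that time are a description as well.

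**Figure D3:**
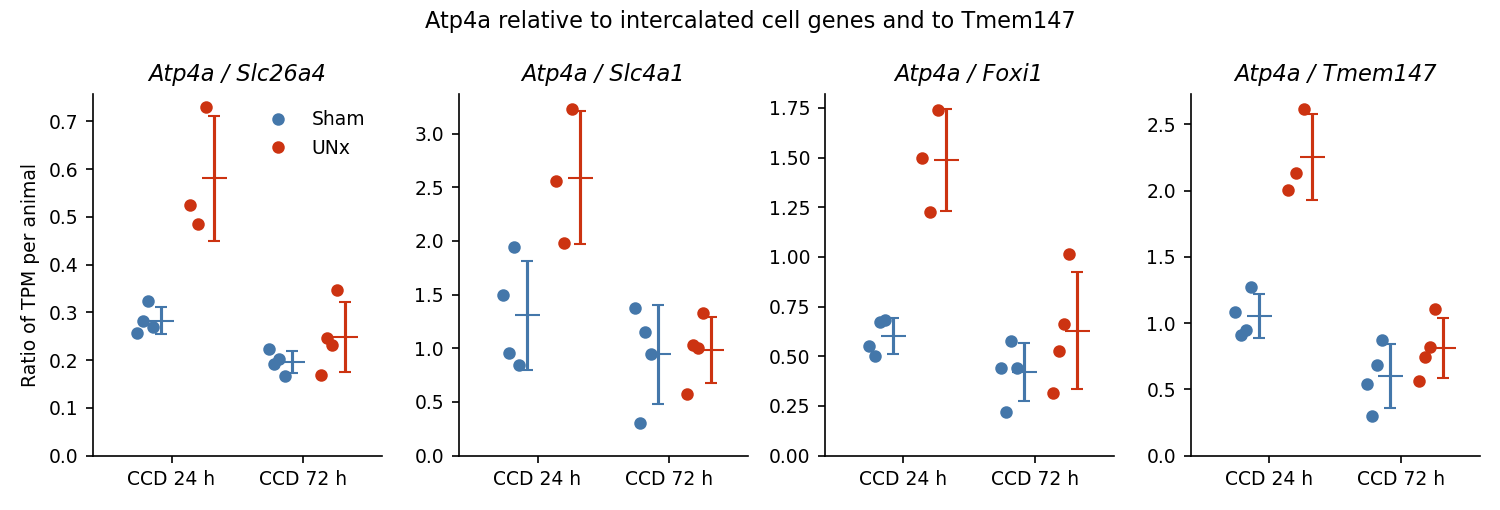
Ratio of the TPM of Atp4a to that of Slc26a4, Slc4a1, Foxi1 or Tmem147 in the same animal (vertical axes, each from 0) in CCD at 24 h and 72 h; points are sham (blue) and UNx (red) animals, and bars show the mean and SD. At 24 h the UNx animals lie above the sham animals in all 4 panels, for Slc26a4 at 0.486 to 0.730 against 0.257 to 0.323, and at 72 h the groups overlap in all 4.

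Marker sums of the duct cell types moved to different degrees at 24 h. The type B sum ranged from 2043 to 2582 TPM in sham and from 2462 to 3045 TPM in UNx animals, with 2 of 3 UNx animals above every sham animal. The type A sum (Slc4a1, Aqp6, Kit and Adgrf5) ranged from 694 to 1097 TPM and from 804 to 992 TPM, and that of 5 markers of both types from 2178 to 2779.9 TPM and from 2111 to 2231 TPM. Principal cell markers ranged from 21603 to 47436 TPM in sham and from 44724 to 64074 TPM in UNx animals, with 2 of 3 above every sham animal. Connecting tubule markers ranged from 768 to 1228 TPM and from 1072 to 1584 TPM, again with 2 of 3 UNx animals above every sham animal. Thick ascending limb markers ranged from 98.6 to 3455 TPM in sham and from 83.9 to 199.6 TPM in UNx animals. No marker of these lists was at 0 in all CCD libraries, and the part of cell type shares in the Atp4a values was not tested. Aqp2, the water channel of principal cells, averaged 22506 TPM in the sham and 41324 TPM in the UNx group (1.06, limma adjusted p = 0.297).

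Of the 21 intercalated cell acid-base genes, 20 were tested at 24 h and 0 passed limma's adjusted p of 0.05. At an unadjusted p under 0.05, 2 of the 20 were higher and 4 lower, beside 5.55% and 9.97% of all genes. The median difference was 0.04. The 3 with the smallest p were all lower. Atp6v0a4, a membrane subunit of the proton pump V-ATPase, averaged 154 TPM in the sham and 82.0 TPM in the UNx group (-0.88, limma adjusted p = 0.0668). Tfcp2l1, a transcription factor of the collecting duct, averaged 538 and 317 TPM (-0.82, limma adjusted p = 0.0727), and Atp6v1b1, the V-ATPase subunit of intercalated cells, averaged 760 ± 203 and 464 ± 89.6 TPM (-0.68, SD, n = 4 and 3, limma adjusted p = 0.163). For these 3 of the 20 genes all UNx animals lay below all sham animals, against 9.3% of all genes, and for Car12, Car15 and Insrr all lay above, against 5.71%. The other V-ATPase subunits of the list had differences near 0, namely Atp6v0d2 (0.05, limma adjusted p = 0.858), Atp6v1g3 (0.04, adjusted p = 0.893) and Atp6v1c2 (-0.005, adjusted p = 0.987).

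At 72 h, 0 of the 20 acid-base genes tested passed limma's test, 0 had an unadjusted p under 0.05 and the groups of all 20 overlapped. Their median difference was 0.10. The smallest p values belonged to Atp6v1g3, a V-ATPase subunit (0.36, limma adjusted p = 0.700), Slc4a1 (0.58, adjusted p = 0.825) and Car2, a cytosolic carbonic anhydrase (0.18, adjusted p = 0.870). Slc26a4 averaged 1147 and 1279 TPM (0.32, limma adjusted p = 0.900), Foxi1 523 and 536 TPM (0.05, adjusted p = 0.973), and Atp6v1b1 1210 and 932 TPM (-0.34, adjusted p = 0.918).

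An H,K-ATPase needs potassium to return across the membrane, and in parietal cells Kcnq1 with Kcne2 carries that current. Of the 13 gastric parietal cell partners, 8 were below the test's filter in CCD at 24 h, among them Kcne2, the intrinsic factor gene Cblif, the gastrin receptor Cckbr and the histamine receptor Hrh2. Of the 5 tested, 0 passed limma's adjusted p of 0.05, and 2 were higher at an unadjusted p under 0.05, as were 5.55% of all genes. Kcnq1 was at 242 ± 14.1 TPM in the sham and 280.0 ± 18.9 TPM in the UNx group (SD, n = 4 and 3; 0.21, limma adjusted p = 0.241). Slc4a2, the basolateral anion exchanger of parietal cells, averaged 57.6 and 70.4 TPM (0.31, limma adjusted p = 0.258), and Kcnj15 3.06 and 1.89 TPM (-0.47, limma adjusted p = 0.619). For Kcnq1 and Slc4a2 all UNx animals lay above all sham animals, as they did for 5.71% of all genes. At 72 h, 4 were tested, 0 passed in limma and 0 had an unadjusted p under 0.05. Kcnq1 (0.23, adjusted p = 0.887), Slc4a2 (0.25, adjusted p = 0.898) and Slc9a4, a sodium-proton exchanger (0.20, adjusted p = 0.934), had the smallest p there.

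Of the 18 potassium channels and cotransporters, 11 were tested at 24 h, 0 passed limma's adjusted p of 0.05, and at an unadjusted p under 0.05, 2 were higher and 3 lower, beside 5.55% and 9.97% of all genes. Kcnj10, a basolateral potassium channel subunit, averaged 15.3 and 11.3 TPM (-0.42, limma adjusted p = 0.200). For 3 genes, Kcnj10 and Kcnj16 among them, all UNx animals lay below all sham animals, and for Kcnq1 all lay above, against the same 9.3% and 5.71% of all genes. At 72 h, 0 of 9 passed in limma and 0 had an unadjusted p under 0.05, with Kcne1 (0.33, adjusted p = 0.848), Kcnk1 (-0.15, adjusted p = 0.880) and Kcnq1 at the smallest p. The median difference of the list was -0.11 at 24 h and 0.04 at 72 h.

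Mineralocorticoids and other steroids act on the collecting duct through nuclear receptors. All 12 genes of the steroid hormone response list were tested at 24 h, and 1 fell past limma's threshold, which 0.987% of all genes passed. At an unadjusted p under 0.05, 3 of the 12 were lower and 0 higher, beside 9.97% and 5.55% of all genes. In 2 of the 12 all UNx animals lay below all sham animals and in 0 all lay above, against 9.3% and 5.71% of all genes. Zbtb16, a zinc finger transcription factor induced by steroid receptors, was at 22.7 ± 4.39 TPM in the sham and 9.61 ± 2.30 TPM in the UNx group (SD, n = 4 and 3; -1.17, limma adjusted p = 0.0320), lower in all 3 UNx animals than in any sham animal. Leaving out any 1 of sham animals 1, 3 and 4 or UNx animals 1 and 2 ended that call, with adjusted p from 0.0335 to 0.127 over all animals left out. It was also lost without the filter on low values (adjusted p = 0.0922) and with the animal number as a replicate block (adjusted p = 0.151). Pgr (-0.51, limma adjusted p = 0.164) and Nr3c2, the mineralocorticoid receptor (78.0 and 63.0 TPM, -0.32, limma adjusted p = 0.165), did not pass. At 72 h, 0 of 12 passed in limma and 2 were lower at an unadjusted p under 0.05, as were 2.82% of all genes, namely Per1 (-1.36, adjusted p = 0.285) and Zbtb16 (11.7 and 6.33 TPM, -0.77, adjusted p = 0.300), while Fkbp5 had 0.37 (adjusted p = 0.700). The median difference of the list was -0.07 at 24 h and -0.02 at 72 h.

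Over the 5 lists together, which hold 76 distinct genes, 1 of 55 tested at 24 h passed, against 0.987% of all genes. In 5 of the 55 all UNx animals lay above all sham animals and in 9 all lay below, against the background shares of 5.71% and 9.3%. The differences of the 55 genes ranged from -1.20 to 0.73. The 1.34 of Atp4a was larger in size than each, but Atp4a was selected on that rise, so this is a description only. At 72 h, 0 of 52 passed in limma, beside 0.595% of all genes. At an unadjusted p under 0.05, 2 of the 52 were lower and 0 higher, beside 2.82% and 4.66% of all genes, and the groups overlapped in all 52, beside 4.77% of all genes without overlap.

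**Figure D4:**
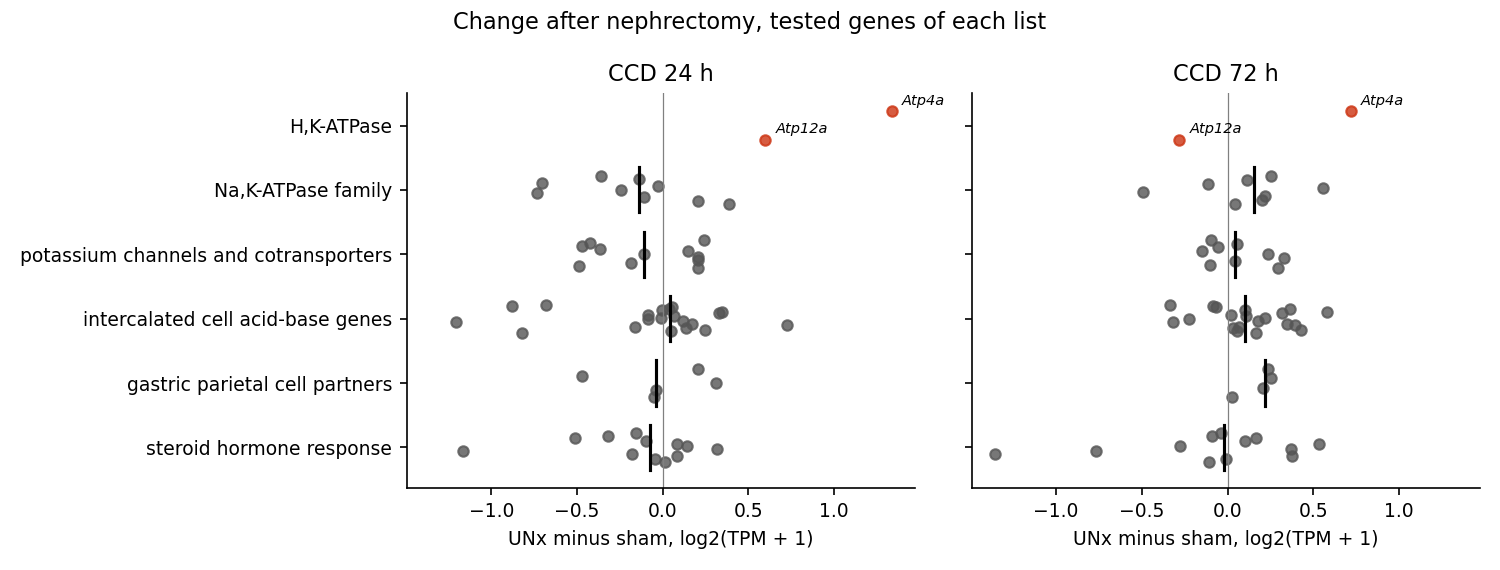
UNx minus sham difference of log2(TPM + 1) (horizontal axis) for each tested gene of the H,K-ATPase and of the 5 lists (rows), in CCD at 24 h (left) and 72 h (right); points are genes and black bars are list medians. At 24 h Atp4a lies at 1.34 and Atp12a at 0.60, while the list genes range from -1.20 to 0.73; at 72 h Atp4a lies at 0.72 and Atp12a at -0.28, and neither passed the test there.

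Animals of a group differed in Atp4a, and its deviations from the group mean were set against those of other genes over the 15 CCD animals. With Slc26a4 the deviations of log2(TPM + 1) had a Pearson r of 0.79 and a Spearman rho of 0.73, and r was 0.74 without the 2 animals farthest from the median of Atp4a. With Slc4a9, the other anion exchanger of type B cells, r was 0.69 and rho 0.68. With the type A genes Slc4a1 and Kit, r was 0.08 and 0.005, and without the same 2 animals 0.36 and 0.25. With Foxi1 r was -0.05 and -0.04 without them. With Atp12a r was 0.32 and rho 0.21. Deviations of Atp12a had an r of 0.64 with Kit, 0.51 with Adgrf5 and 0.39 with Slc4a1, all type A genes. With the type B genes Slc26a4 and Slc4a9 r was 0.36 and 0.46. Without the 2 animals farthest from the median of Atp12a, these were 0.48, 0.385 and 0.02 for type A and 0.22 and 0.16 for type B. These values describe 15 animals, of which the 8 animals at 72 h spread the most. At 24 h the Atp4a deviations of UNx animals 1, 2 and 3 were -0.04, -0.16 and 0.20. Those of Slc26a4 had the opposite signs, at 0.09, 0.08 and -0.17. Sham animals 1 to 4 at 24 h had 0.02, -0.05, 0.004 and 0.03 for Atp4a. For Slc26a4 they had 0.15, -0.06, -0.20 and 0.10. The r over 15 animals therefore does not describe the 24 h animals alone. Within a library all genes share the dissection and the library preparation, so no p was computed.

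**Figure D5:**
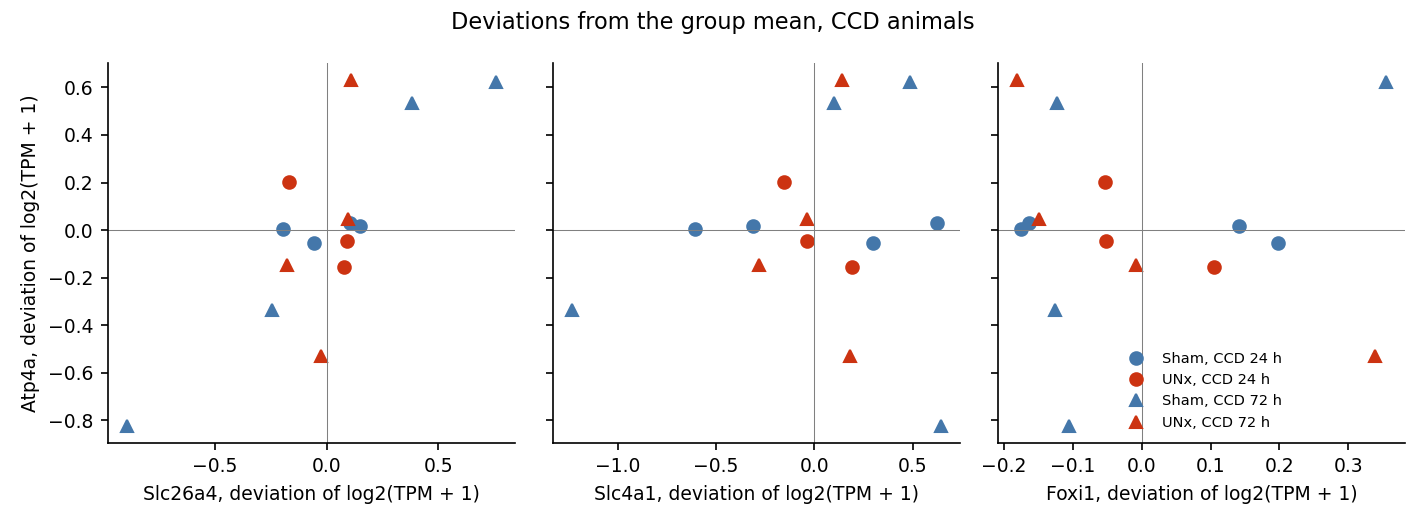
Deviation of Atp4a from its group mean (vertical axis, log2(TPM + 1)) against that of Slc26a4, Slc4a1 and Foxi1 (horizontal axes, same unit) over 15 CCD animals; circles are 24 h, triangles 72 h, blue sham and red UNx. The r over all points is 0.79 with Slc26a4, 0.08 with Slc4a1 and -0.05 with Foxi1. Without the 2 animals farthest from the median of Atp4a it is 0.74, 0.36 and -0.04. At 24 h the UNx animals deviate in opposite directions for Atp4a and Slc26a4.

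Among the 13253 genes tested in both CCD tables, the 5 with deviations most like those of Atp4a over the 15 animals were Gm43378 (r = 0.92), Polh (r = 0.90), C530005A16Rik (r = 0.90), Acot4 (r = 0.89) and Chic1 (r = 0.89). Slc26a4 was exceeded by 0.709% of the genes in its likeness to Atp4a and Slc4a9 by 2.97%. For Atp12a the 5 most alike were Cipc (r = 0.90), Otud6b (r = 0.89), Scarf1 (r = 0.88), 2410131K14Rik (r = 0.88) and Pla2g6 (r = 0.88). The lists of Atp4a and Atp12a had no gene in common. They are the extremes of 13253 values over few animals and are named as a description only.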

How the data were processed

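RNA-seq of dissected mouse tubules was analysed from 4 deposited tables of TPM, 1 for each segment and time. Per the labels' protocols, polyA RNA was amplified with SMART-Seq V4 and sequenced on a NovaSeq. The authors used STAR, RSEM 1.3.3 and GRCm39, per the submitters' processing notes, and the annotation release is not given in the sources used here. TPM totals are fixed, so depth per library and counting error are unknown.

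All 69 columns were used: 47 names matched 1 sample, and 22 matched only the group and animal. The number after Sham or UNx was read as the animal, which the labels do not spell out, and whether segments share animals is not stated. Libraries were averaged per animal on log2(TPM + 1), with a pseudocount of 1, and every difference is on that scale, which understates low genes. UNx was compared with sham within a table by limma 3.58.1 (R 4.3.3, trended empirical Bayes, two-sided), with Benjamini-Hochberg adjustment over all genes whose TPM averaged at least 1 and a threshold of 0.05. P-values are adjusted in this way unless called unadjusted. Members below that filter had exact permutation tests over animals in PT-S1 and, for Atp4b, in CCD at 72 h (SciPy 1.17.1). The fit was tested on simulated data with normal noise and 200 genes, drawn from the more abundant ones, changed by 2 on the log2 scale. It recovered 99% of them for CCD at 24 h (13796 genes, 8.33% of its calls false). For CCD at 72 h it recovered 98.5% (13815 genes, 7.51% false). Both false shares were above the threshold of 0.05. A change of 2 is larger than the differences reported above, so the recovery of smaller changes is not known from this check.

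The members, lists, reference genes and tests were chosen with earlier results of these data known. The genes named are the 3 members, reference genes (Atp1b1, Slc4a1, Slc26a4, Atp6v1b1, Foxi1, Aqp2), the 3 genes of smallest p per list and CCD table, and the 5 genes most alike each alpha subunit gene. Some genes under this rule are not reported here but stay in the counts and medians. Genes named beyond that rule, such as those of non-overlapping groups, Tmem147, Gm10873, Slc4a9 and Kit, were chosen after their values were seen or as markers. Coding sequences came from GENCODE M21 (GRCm38), a build other than that of the tables, so no coordinates are given, and were aligned with Biopython 1.88. Alternatives covered the pseudocount, filter, scaling, averaging, library weighting, the replicate block, libraries of low correlation and each animal left out.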

Additional observations from a re-analysis of the deposited data

Results flagged for a closer look

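In 7 cases a single animal of a group lay far from the others, by Dixon's ratio of the gap to the range. All are genes listed at or near 0. In PT-S1 at 72 h, Atp4a was 1.73 TPM in sham animal 3 and Atp12a was 0.06 TPM in that animal, and Atp12a was 0.005 TPM in UNx animal 1. In PT-S1 at 24 h, Atp4a was 0.005 TPM in UNx animal 2 and Atp12a was 0.095 TPM in UNx animal 1. In CCD at 72 h, Atp4b was 0.0967 TPM in sham animal 4 and 0.015 TPM in UNx animal 4. Chance passes this limit in about 5% of groups, and a group with all but 1 animal at 0 passes it by construction. Of these values, that of Atp4a in sham animal 3 is the largest, and it comes from the PT-S1 library with the high type B marker sum.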

How the results depend on the processing

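Atp4a and Atp12a kept the sign of their differences in both CCD tables and their side of the threshold at 72 h under every alternative run. At 24 h the difference of Atp4a, which was selected on these values, ranged from 1.24 to 1.41 and that of Atp12a from 0.38 to 0.90. At 72 h Atp4a ranged from 0.37 to 0.92 and Atp12a from -0.60 to -0.05, with adjusted p from 0.272 to 0.9997 for Atp4a and from 0.382 to 0.9999 for Atp12a. The number of genes called moved more. At 24 h it was 136 in the reported fit, 1 without the filter, 1027 with every library as a replicate, 485 with a random effect for the animal, and 7 to 78 with each animal left out. At 72 h it was 82, and 7 without the filter, 39 with a mean TPM of at least 5, 150 with every library as a replicate, 129 without the library of low correlation and 8 to 73 with each animal left out. Zbtb16 at 24 h lost its call without the filter (adjusted p = 0.0922). Groups share animal numbers, but same-numbered CCD animals did not all deviate together (correlations of -0.181 to 0.0461 at 24 h and -0.00951 to 0.176 at 72 h), nor did those of PT-S1 (-0.0372 to 0.257 and -0.366 to 0.328), so the numbers were not taken as pairs. With the number as a replicate block, 0 genes were called at 24 h and 3 at 72 h, the differences of Atp4a were 1.35 and 0.72, those of Atp12a 0.41 and -0.28, and Zbtb16 had an adjusted p of 0.151. The PT-S1 values of the 3 genes, mostly at 0, were not recomputed under the alternatives. Depth is not known from TPM and limits what a value of 0 shows.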
